A study of Homo sapiens with 9 samples.

Results

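Bile acid synthesis and transport were followed through 10 genes chosen by name, which are CYP7A1, CYP7B1, CYP8B1, CYP27A1, BAAT, SLC10A1, ABCB11, SLC51A, SLC51B and SLCO1B1. They are 10 of the 58735 genes counted in each library. All libraries came from Huh-7, a human hepatoma cell line that makes and secretes apoB-containing lipoproteins. There were 3 groups of 3 libraries. The control group was Huh-7 cells without the knockout, Ako-3 was a Huh-7 clone in which APOB had been knocked out with CRISPR/Cas9, and Mko-3 was a Huh-7 clone in which MTTP had been knocked out with CRISPR/Cas9. APOB encodes the structural protein of these lipoproteins, and MTTP encodes the transfer protein that loads lipid onto it. The cells of all 3 groups were kept overnight without serum before the RNA was taken, and the labels name no other treatment. Each knockout is a single clone, so the loss of the gene and other differences of that clone from the control cells cannot be told apart. Both knockouts were compared with the same control libraries.

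Hepatocytes make bile acids from cholesterol by a classic route, which CYP7A1 starts, and by an acidic route, which CYP27A1 starts and CYP7B1 continues. CYP8B1 decides how much cholic acid is made, and BAAT joins the finished acids to glycine or taurine. SLC10A1 (NTCP) and SLCO1B1 (OATP1B1) take bile acids up from blood, ABCB11 (BSEP) pumps them into bile, and SLC51A and SLC51B are the subunits of OST, which lets them leave across the basolateral membrane. Bile acids bind the nuclear receptor FXR, encoded by NR1H4, which is known to raise NR0B2, ABCB11, SLC51A, SLC51B and, in intestine, FGF19, and so to hold CYP7A1 down. Hepatoma lines often keep only part of this program.

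The libraries held 14638727 to 20179760 counts, and Pearson's r of log2(FPKM + 1) over 12517 genes was 0.985 to 0.993 within groups and 0.945 to 0.976 between them. Normalized APOB levels (CPM, counts scaled by library size) were 2652, 3495 and 3818 in control, 1417, 1274 and 1267 in Ako-3, and 3138, 3435 and 3260 in Mko-3. MTTP was at 627, 601 and 654 CPM in control, 599, 583 and 542 in Ako-3, and 87.9, 91.4 and 83.2 in Mko-3. Each targeted transcript was thus lowest in the clone whose label names it. All 10 hepatocyte markers exceeded 1 FPKM in every group, with a summed level of 18365 to 18709 CPM in control, 22334 to 23747 in Ako-3 and 18513 to 19505 in Mko-3. Mitochondrial genes held 5.52% to 6.17% of the counts in control, 7.06% to 7.40% in Ako-3 and 5.75% to 5.82% in Mko-3. In RNA from whole cultures, fewer cells that express a gene and less RNA of it per cell cannot be told apart.

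The 10 genes fell into 2 sets by level. SLC51B, CYP27A1, BAAT and SLC51A were above 2 FPKM (fragments scaled by gene length and library size) in every library, while the other 6 genes never exceeded 1 FPKM. The 4 higher genes held 22848 of the 23105 counts of all 10 genes, or 98.89%. On the FPKM scale, the order in control and in Ako-3 cells was SLC51B, CYP27A1, BAAT, SLC51A, SLCO1B1, CYP8B1, SLC10A1, ABCB11, and last CYP7A1 and CYP7B1 at 0. Among these neighbours, the libraries of SLCO1B1 and CYP8B1 and those of SLC10A1 and ABCB11 overlapped in both groups. In Mko-3 cells the leading pair changed places, with CYP27A1 above SLC51B in every library, and CYP8B1, ABCB11 and SLC10A1 overlapped one another in level.

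**Figure D1:**
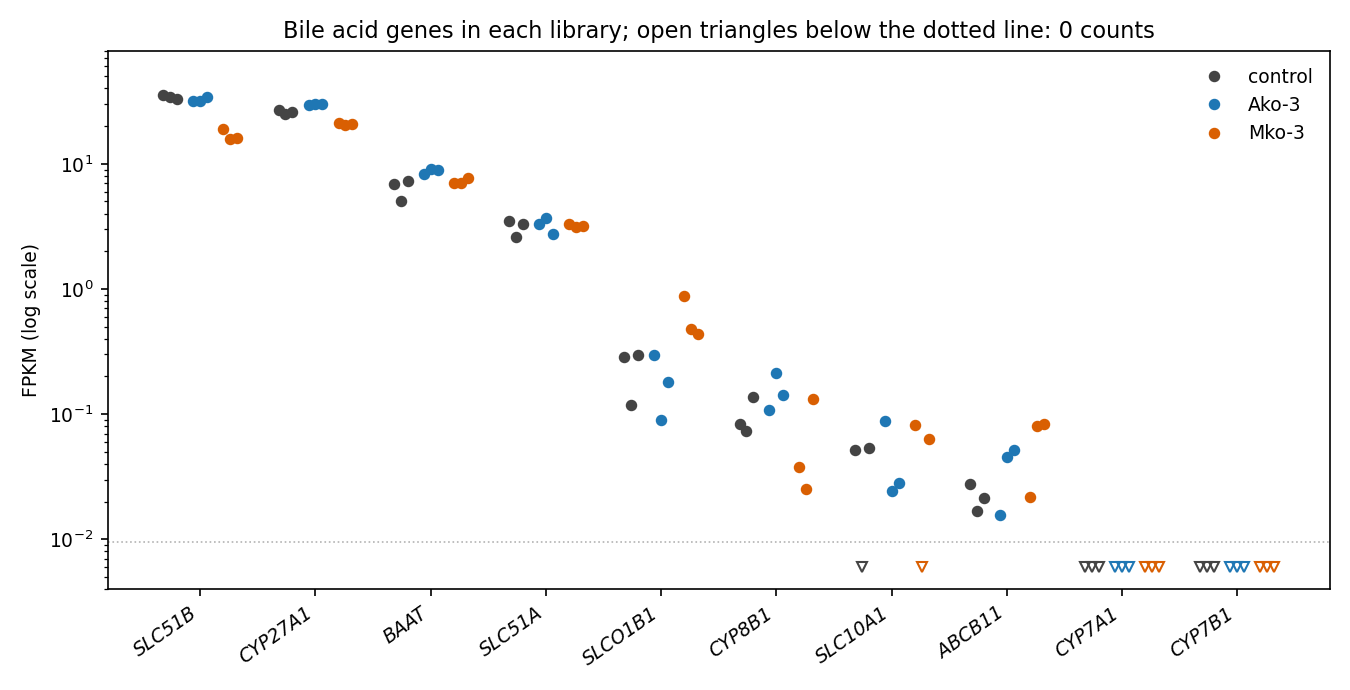
Deposited FPKM of the 10 bile acid genes on a log axis, with 1 point for each library of control, Ako-3 and Mko-3 cells, and with libraries at 0 counts drawn as open triangles below the dotted line. SLC51B, CYP27A1, BAAT and SLC51A lie above 2 FPKM in every library, SLC51B drops in Mko-3 alone, and CYP7A1 and CYP7B1 are at 0 counts in all 9 libraries.

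The promoters of the 2 OST subunits are shown because SLC51B fell in Mko-3 cells while SLC51A did not pass the test, although both subunits are known to be FXR targets. FXR binds, with RXRA, an inverted repeat of AGGTCA with 1 base between the copies, written here as AGGTCANTGACCT, where N is any base. After the levels had been seen, this palindrome was searched with at most 2 mismatches among its 12 defined bases. The windows were RefSeq promoters of GRCh38.p14, from 250 bases before to 50 bases after each gene start. Windows of 7 of the 10 genes were used. CYP7A1, CYP7B1 and CYP8B1 were not searched, so nothing is said of their promoters. The 250 bases of each subunit that precede the RefSeq start are printed 5′ to 3′, and capitals mark the matched repeat. For SLC51A this window lies inside the gene as counted, which begins at chr3:196211487, so the bases before that position were not searched.
SLC51B, chr15:65045137-65045386, + strand: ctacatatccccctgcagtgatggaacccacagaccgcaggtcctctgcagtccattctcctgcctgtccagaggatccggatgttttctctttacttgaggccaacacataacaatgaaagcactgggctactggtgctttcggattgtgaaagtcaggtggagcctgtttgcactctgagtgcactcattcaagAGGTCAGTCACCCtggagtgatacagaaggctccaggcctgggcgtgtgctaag
SLC51A, chr3:196216284-196216533, + strand: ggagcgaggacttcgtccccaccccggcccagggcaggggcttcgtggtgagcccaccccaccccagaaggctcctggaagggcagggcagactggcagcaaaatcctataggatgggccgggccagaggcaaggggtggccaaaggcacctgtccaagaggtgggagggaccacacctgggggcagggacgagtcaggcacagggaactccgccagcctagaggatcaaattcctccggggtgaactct

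The SLC51B window held 1 match, AGGTCAGTCACCC, which begins 54 bases before the start and has 2 mismatches. It is the only capitalized stretch of the printed pair. The SLC51A window held no match, nor did those of CYP27A1, BAAT (2 windows) or SLCO1B1. The CYP27A1 window also lies inside the gene as counted, which begins at chr2:218781749, so the bases before that position were not searched. Matches with 2 mismatches were also found for ABCB11 (ATGTCACTGAACT, 96 bases before the start) and SLC10A1 (AGGTCAGGGAGCT, 149 bases before the start). Among all 35116 promoter windows, 394 (1.122%) held such a match, and 13.83% held a single AGGTCA on either strand. A match is a string of letters and not a measured binding site, repeats that differ by more bases are missed by this search, and no binding data were used here.

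SLC51B, the β subunit of OST, was the member most clearly lower in Mko-3 cells. In control it was at 35.3, 34.2 and 32.6 FPKM (34.1 ± 1.35, SD, n = 3), in Ako-3 at 31.8, 31.9 and 34.4 FPKM (32.7 ± 1.5), and in Mko-3 at 18.9, 15.9 and 16.0 FPKM (16.9 ± 1.69). All Mko-3 libraries lay below all libraries of the other groups, and control and Ako-3 overlapped. By edgeR's quasi-likelihood F test with Benjamini-Hochberg adjustment over all genes tested, the log2 fold change in Mko-3 against control was -1.02 (SE 0.10, 95% interval -1.22 to -0.82, adjusted p = 2.1e-08), that is 0.493 times the control level. Against Ako-3 it was -0.96 (SE 0.09, adjusted p = 1.6e-15), just short of the fold threshold, and it passed without Mko-3 replicate 1 (-1.04). In Ako-3 against control the log2 fold change was -0.06 (95% interval -0.24 to 0.11, adjusted p = 0.561). The call in Mko-3 sits on the threshold of 1 and is lost without control replicate 1 (-0.99), Mko-3 replicate 2 (-0.97) or Mko-3 replicate 3 (-0.97), while the adjusted p stayed at or below 2.4e-06 in each of these.

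SLC51A, the α subunit, which must pair with the β subunit to reach the cell surface, was at 3.52, 2.62 and 3.33 FPKM in control, 3.28, 3.66 and 2.77 in Ako-3, and 3.29, 3.10 and 3.19 in Mko-3. The 3 groups overlapped throughout. Its log2 fold change was 0.03 (95% interval -0.23 to 0.29) in Ako-3 and -0.0014 (95% interval -0.24 to 0.24) in Mko-3 against control, with adjusted p = 0.871 and 0.993 by edgeR, and the sign of these values changed between alternatives. The interval in Mko-3 leaves out a fall as large as that of SLC51B in the same libraries.

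The unequal change of the subunits shows within single libraries. The ratio of SLC51B to SLC51A FPKM was 10.0, 13.0 and 9.81 in control, 9.70, 8.71 and 12.4 in Ako-3, and 5.74, 5.13 and 5.00 in Mko-3. Every Mko-3 ratio was below every ratio of the other groups, which overlapped each other. On the log2 scale the mean ratio in Mko-3 differed by -1.04 from control and by -0.94 from Ako-3, each with p = 0.1 in a two-sided exact permutation test, the smallest p that 3 libraries against 3 allow. Ako-3 differed from control by -0.10 (exact permutation p = 0.5), and over these 3 tests the adjusted values were 0.15, 0.15 and 0.5. This ratio was chosen after the levels had been seen.

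**Figure D2:**
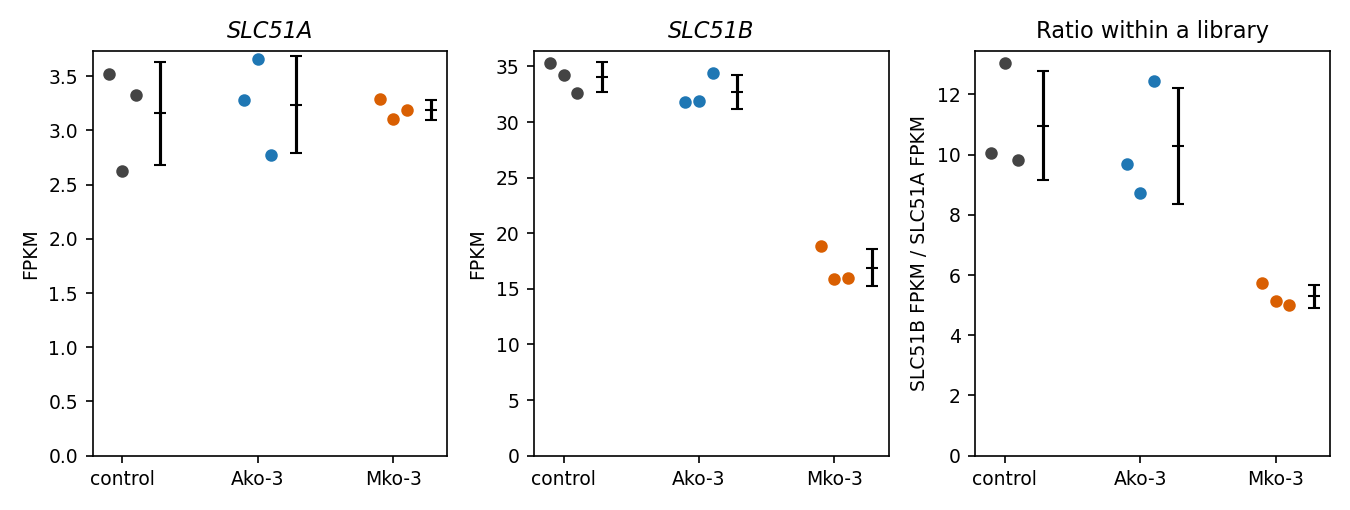
FPKM of SLC51A (left), FPKM of SLC51B (middle) and their ratio within each library (right) on linear axes from 0, with 1 point for each library and bars for the mean and SD of 3 libraries. SLC51A overlaps between all groups, whereas the Mko-3 libraries lie lowest for SLC51B and for the ratio, at 5.00 to 5.74.

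Genes that overlap the OST subunits, and markers of other cells that make OST, were examined beside this result. On hg38, SLC51B lies at chr15:65045370-65053396 on the + strand and ends 60 bases inside RASL12, a gene on the - strand. In GENCODE release 44 the shared part is 61 of 924 exon bases of SLC51B (6.6%). RASL12 had log2 fold changes of 0.41 in Ako-3 and -0.51 in Mko-3 against control. SLC51A, at chr3:196211487-196243178 on the + strand, shares 389 of 5263 exon bases (7.39%) with PCYT1A on the - strand, whose log2 fold changes were 0.63 and 0.48. Whether reads were counted by strand is not given in the sources used here, so part of the reads in the shared bases may belong to the partner. OST is also abundant in bile duct and ileal cells. Of 6 cholangiocyte markers, 3 were above 1 FPKM in every group and KRT7 and SLC10A2 were at 0, with a summed level of 417 to 462 CPM in control, 394 to 409 in Ako-3 and 518 to 527 in Mko-3. Its members differed in direction: in Mko-3 against control the log2 fold change was 2.92 for KRT19 and 1.17 for EPCAM (adjusted p = 1.8e-16 and 4.3e-11), and -0.41 for SOX9 (adjusted p = 1.4e-05). The part of these markers in the SLC51B result was not tested.

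CYP27A1, the mitochondrial sterol hydroxylase at the head of the acidic route, moved in opposite directions in the clones. It lies at chr2:218781749-218815293 on the + strand. Its level was 26.8, 24.96 and 25.9 FPKM in control (25.9 ± 0.914, SD, n = 3), 29.7, 29.9 and 30.2 in Ako-3 (29.9 ± 0.241) and 21.2, 20.6 and 20.7 in Mko-3 (20.8 ± 0.316). The 3 groups did not overlap, with Ako-3 highest and Mko-3 lowest. The log2 fold change was 0.21 (SE 0.07, 95% interval 0.07 to 0.34, adjusted p = 0.0134) in Ako-3 and -0.33 (SE 0.07, 95% interval -0.47 to -0.18, adjusted p = 3.8e-04) in Mko-3 against control, and -0.53 (SE 0.05, adjusted p = 2.0e-13) in Mko-3 against Ako-3 by edgeR. None of these reached a log2 fold change of 1. The Mko-3 against Ako-3 difference amounts to 0.691 times the Ako-3 level.

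BAAT, the conjugating enzyme, at chr9:101360417-101383519 on the - strand, was highest in Ako-3 cells. It was at 6.86, 5.00 and 7.26 FPKM in control, 8.26, 9.15 and 8.90 in Ako-3, and 7.05, 7.08 and 7.70 in Mko-3. Every Ako-3 library lay above every other library, and control and Mko-3 overlapped. The log2 fold change in Ako-3 was 0.45 against control (SE 0.11, adjusted p = 0.00292), and in Mko-3 it was -0.28 against Ako-3 (SE 0.08, adjusted p = 0.00279) and 0.17 against control (95% interval -0.07 to 0.41, adjusted p = 0.218). Control replicate 2 was the lowest of the control libraries for BAAT and for SLC51A. Leaving out any single library kept the Ako-3 value between 0.31 and 0.56.

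SLCO1B1, a sinusoidal uptake carrier at chr12:21131202-21239246, was low everywhere and higher in Mko-3. Its counts were 12, 4 and 12 in control, 11, 4 and 7 in Ako-3, and 35, 19 and 15 in Mko-3, which correspond to 0.286, 0.118 and 0.295 FPKM, to 0.298, 0.0900 and 0.180 FPKM, and to 0.881, 0.481 and 0.437 FPKM. The lowest Mko-3 library was above the highest of the other groups. The log2 fold change was 1.32 against control (SE 0.42, 95% interval 0.44 to 2.19, adjusted p = 0.0118) and 1.69 against Ako-3 (SE 0.43, 95% interval 0.84 to 2.55, adjusted p = 8.3e-04) by edgeR. Without Mko-3 replicate 1, the highest library, the value against control was 0.93 with an adjusted p of 0.12, whereas the value against Ako-3 was called under all 12 alternatives in which it could be tested (1.28 to 2.16). In Ako-3 against control it was -0.37 (95% interval -1.47 to 0.74, adjusted p = 0.592). SLCO1B1 and SLCO1B3 are close relatives, and reads that fit both may have been divided between them or dropped.

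CYP8B1, the sterol hydroxylase of cholic acid synthesis, at chr3:42856005-42876165, had 7, 5 and 11 counts in control, 8, 19 and 11 in Ako-3 and 3, 2 and 9 in Mko-3. The Mko-3 library with 9 counts lay within the range of both other groups. Its log2 fold change in Mko-3 against Ako-3 was -1.32 (SE 0.54, 95% interval -2.40 to -0.24, adjusted p = 0.042), but only 4 of 12 alternatives kept that call, DESeq2 gave an adjusted p of 0.14, and the call was lost without Ako-3 replicate 2, Ako-3 replicate 3, Mko-3 replicate 1 or Mko-3 replicate 2 (adjusted p of 0.063 to 0.24). In Ako-3 against control it was 0.66 (95% interval -0.31 to 1.63, adjusted p = 0.253). In Mko-3 against control its counts fell under the filter on low counts, and without that filter it was at -0.61 (SE 0.68, adjusted p = 0.527). At this depth no difference of CYP8B1 from control was detectable. It shares 142 of 4174 exon bases (3.4%) with ACKR2 on the other strand.

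ABCB11, the bile salt export pump, had 4, 2 and 3 counts in control, 2, 7 and 7 in Ako-3 and 3, 11 and 10 in Mko-3, at most 0.0842 FPKM. The libraries of all groups overlapped. It was below the filter in all 3 comparisons. Without the filter its log2 fold change in Mko-3 against control was 1.45 (SE 0.74, adjusted p = 0.146). Without Mko-3 replicate 1 it passed the filter and both thresholds at 1.84 (SE 0.64, adjusted p = 0.0244 by edgeR), so its result depends on that library. In that fit it entered the test only through the Mko-3 libraries with 11 and 10 counts. This selection itself favours a higher value, so the call is no support for a rise. SLC10A1, the sodium-dependent uptake carrier, had 2, 0 and 2 counts in control, 3, 1 and 1 in Ako-3 and 3, 0 and 2 in Mko-3, which is at or below the limit of 3 counts that a count of 0 allows, and no fold is given.

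CYP7A1, the rate-limiting enzyme of the classic route, and CYP7B1, the oxysterol hydroxylase of the acidic route, had 0 counts in all 9 libraries. A count of 0 allows up to 3 counts in a library, which for CYP7A1 is at most 0.0666 FPKM in control, 0.0614 in Ako-3 and 0.0660 in Mko-3, and for CYP7B1 at most 0.0861, 0.0793 and 0.0853 FPKM. These limits cover counting error only. Both genes lie on chromosome 8 of hg38, CYP7A1 at 58490178 to 58500236 and CYP7B1 at 64587763 to 64798761, each on the - strand. No comparison between groups was possible for either.

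The comparison of Ako-3 with control sets the APOB knockout clone against the control cells. Of the 10 genes, 6 passed the filter on low counts and 0 were called at both thresholds, which were a log2 fold change of 1 or more in size and an adjusted p not above 0.05. DESeq2 also called 0. At an unadjusted p below 0.05 there were 2, CYP27A1 and BAAT, and both also passed the adjusted p alone, in the higher direction. Among all 15787 genes tested by edgeR, 3.52% were called higher and 5.00% lower at both thresholds, and 25.5% were higher and 24.4% lower by the adjusted p alone. The median log2 fold change of the 6 genes was 0.12, against -0.01 over all genes tested.

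The comparison of Mko-3 with control does the same for the MTTP knockout clone. Here 5 genes were tested, SLC51B was called lower and SLCO1B1 was called higher, and CYP27A1 was lower by the adjusted p alone. The background over 15745 genes was 3.82% higher and 7.22% lower at both thresholds, and 26.9% higher and 27.1% lower by the adjusted p alone. The median of the 5 genes was -0.0014, against -0.01 over all genes.

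Mko-3 against Ako-3 is the direct test of a difference between the clones and does not use the control libraries. Of 6 genes tested, CYP8B1 was called lower and SLCO1B1 higher at both thresholds. By the adjusted p alone 4 were lower (SLC51B, CYP27A1, BAAT and CYP8B1) and 1 was higher (SLCO1B1), which leaves SLC51A at -0.03 (95% interval -0.23 to 0.17). Over 15528 genes, 2.26% were called higher and 3.47% lower at both thresholds, and 21.1% were higher and 20.6% lower by the adjusted p alone. The median of the 6 genes was -0.41, against 0.0048 over all genes.

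**Figure D3:**
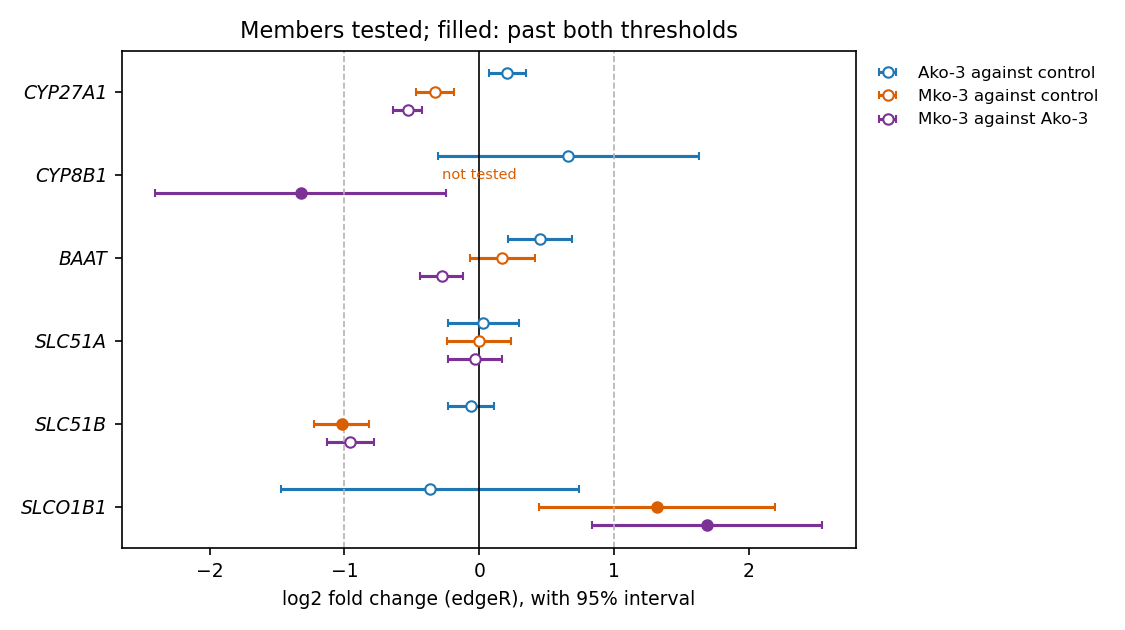
Log2 fold changes from edgeR with 95% intervals for the 6 members that could be tested in at least 1 comparison, coloured by comparison, with filled points past both thresholds and dashed lines at a log2 fold change of 1 in either direction. SLC51A lies near 0 in all comparisons, SLC51B sits at the lower line in both Mko-3 comparisons, and the intervals of CYP8B1 and SLCO1B1 are wide because their counts are low.

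The genes whose profile over the 9 libraries was most like that of a member were found by Pearson's r of log2 CPM among 16169 genes, for the 3 members with the smallest adjusted p. For SLC51B these were DIRAS1 (0.993), CELSR3 (0.991) and SNORC (0.990). For CYP27A1 they were HPR (0.9997), CPVL (0.997) and ALDH3B1 (0.994), and for SLCO1B1 they were LINC01336 (0.956), AFAP1L1 (0.938) and PLA2R1 (0.921). The 9 libraries form 3 groups, so the points are not independent, and HPR has a near-identical relative in HP, so its reads are uncertain.

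The members sit in a wider pathway, which was described through 59 genes in 4 lists: synthesis (19), transport (18), regulation (18) and clearance (4). In Ako-3 against control 49 were tested, 3 were called higher and 4 lower at both thresholds, and 12 were higher and 13 lower by the adjusted p alone. In Mko-3 against control 49 were tested, 3 were called higher and 5 lower, and 10 were higher and 23 lower by the adjusted p alone. In Mko-3 against Ako-3 50 were tested, 4 were called higher and 7 lower, and 12 were higher and 29 lower by the adjusted p alone. The medians were 0.03, -0.19 and -0.28. Over all genes tested, in the same order, the shares called at both thresholds were 3.52% higher and 5.00% lower, 3.82% and 7.22%, and 2.26% and 3.47%. By the adjusted p alone they were 25.5% higher and 24.4% lower, 26.9% and 27.1%, and 21.1% and 20.6%.

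In the synthesis list, AKR1D1, the reductase that gives bile acids their bent ring, rose in both clones. It was at 4.04, 3.29 and 2.90 CPM in control, 15.7, 19.6 and 17.3 in Ako-3 and 13.6, 15.0 and 14.3 in Mko-3, with log2 fold changes against control of 2.33 (adjusted p = 1.4e-10) and 2.03 (adjusted p = 5.3e-10) by edgeR. SLC27A5, the ligase that activates bile acids before BAAT acts on them, fell in both. Its counts were 73, 31 and 77 in control, 18, 17 and 21 in Ako-3 and 17, 15 and 9 in Mko-3, and its log2 fold changes were -1.71 and -2.09 (adjusted p = 8.5e-05 and 1.1e-05), the latter -1.35 by limma on log2(FPKM + 0.1). AKR1C4, a ketosteroid reductase of the same pathway, rose in Mko-3, where it had 57, 30 and 35 counts against 6, 7 and 13 in control and 8, 14 and 7 in Ako-3. Its log2 fold change was 2.24 against control and 2.14 against Ako-3 (adjusted p = 3.7e-05 and 4.8e-07 by edgeR). In Ako-3 against control its counts fell under the filter and it was not tested. In both Mko-3 comparisons it passed the filter through its counts in Mko-3, the group where it is high, which favours a higher call. AKR1C4 has close relatives on chromosome 10, so its reads are uncertain. Over the list, by the adjusted p alone, 6 genes were higher and 2 lower of 14 in Ako-3, and 5 higher and 5 lower of 14 in Mko-3 against control. The shares of all genes by this rule were 25.5% higher and 24.4% lower in Ako-3, and 26.9% higher and 27.1% lower in Mko-3.

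In the transport list, ABCG5 and ABCG8, which together form the sterol pump that sends cholesterol into bile, fell in Mko-3 cells. ABCG5 was at 16.3, 10.5 and 12.4 CPM in control, 13.4, 15.4 and 11.1 in Ako-3 and 2.45, 1.90 and 2.55 in Mko-3, with log2 fold changes of -2.55 against control and -2.54 against Ako-3 (adjusted p = 5.3e-10 and 9.5e-23). ABCG8 had 645, 470 and 564 counts in control, 807, 1025 and 844 in Ako-3 and 146, 215 and 107 in Mko-3, with log2 fold changes of -1.82 and -2.44 (adjusted p = 5.2e-08 and 2.3e-12). For both genes the Mko-3 libraries lay below all others. The pair is transcribed in opposite directions and shares 137 of 3720 exon bases of ABCG5 (3.68%).

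FABP6, the intestinal bile acid binding protein, had 9, 2 and 12 counts in control, 31, 47 and 16 in Ako-3 and 14, 11 and 10 in Mko-3, and its log2 fold change was 1.96 in Ako-3 against control (adjusted p = 0.00127) and -1.33 in Mko-3 against Ako-3 (adjusted p = 0.00183). The call between the clones was lost without Ako-3 replicate 2 (-1.01). SLCO1B3, the second hepatic uptake carrier of its family, had 37, 42 and 53 counts in control, 12, 21 and 19 in Ako-3 and 39, 27 and 33 in Mko-3. It fell in Ako-3 by 1.40 on the log2 scale (adjusted p = 6.3e-04) and was 1.01 higher in Mko-3 than in Ako-3 (adjusted p = 0.00792). The latter lay on the threshold and fell short of it without Ako-3 replicate 1, Mko-3 replicate 1 or Mko-3 replicate 3, with a lowest value of 0.85. SLCO1B1 and SLCO1B3 were thus both higher in Mko-3 than in Ako-3, and their levels against control differed in which clone stood apart. Over the transport list, 3 genes were higher and 4 lower of 15 by the adjusted p alone in Ako-3, and 3 higher and 5 lower of 15 in Mko-3 against control. Among all genes, the shares by this rule were 25.5% higher and 24.4% lower in Ako-3, and 26.9% higher and 27.1% lower in Mko-3. Of 5 ileal markers, which include FABP6 itself at no more than 2.42 CPM, SLC10A2 was at 0, and the summed level was 386 to 431 CPM in control, 500 to 543 in Ako-3 and 400 to 425 in Mko-3. By edgeR, the log2 fold change in Ako-3 against control was 0.66 for VIL1 (adjusted p = 6.0e-07). It was 0.14 for CDX2 (adjusted p = 0.0717) and 0.50 for SI (adjusted p = 0.191). The part of these ileal markers in the FABP6 result was not tested.

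**Figure D4:**
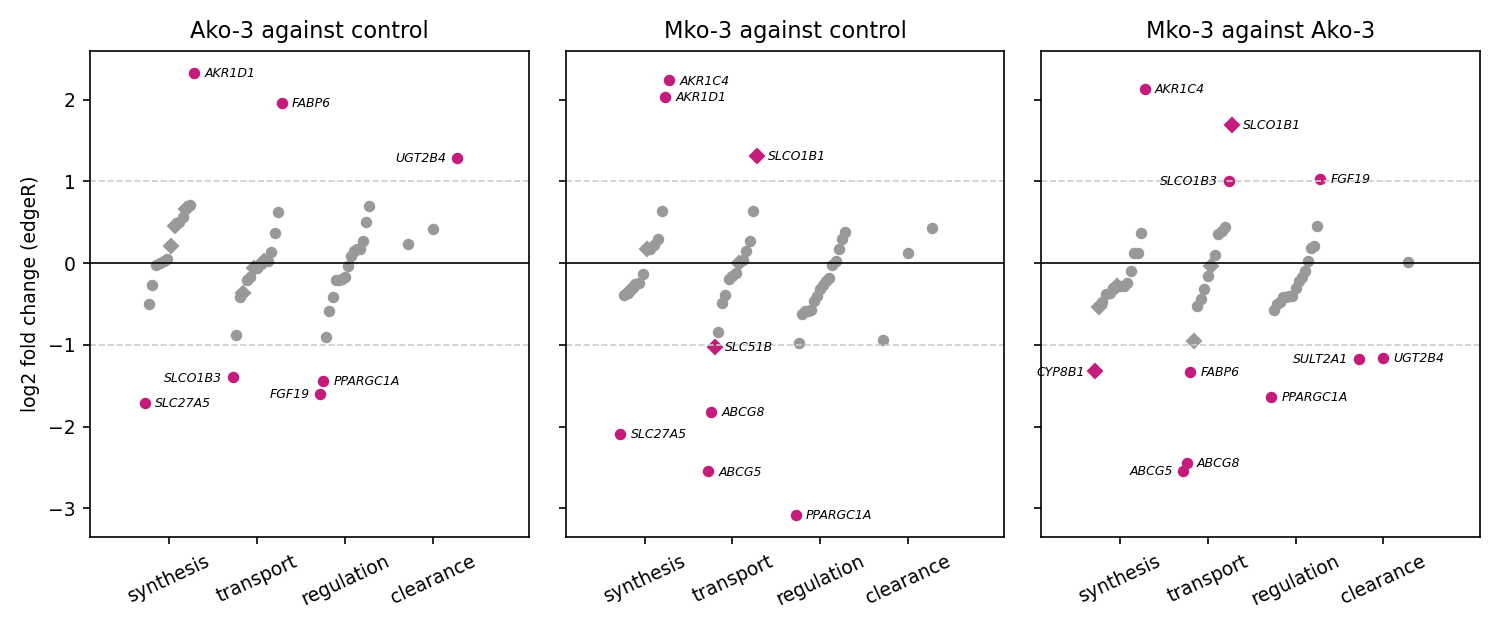
Log2 fold change from edgeR of each tested gene of the synthesis, transport, regulation and clearance lists in the 3 comparisons, with diamonds for the 10 members, coloured and named points past both thresholds, and dashed lines at a log2 fold change of 1 in either direction. AKR1D1 lies above and SLC27A5 below the lines in both clones against control, and ABCG5 and ABCG8 lie far below in both Mko-3 comparisons.

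Among the regulators, NR1H4, which encodes FXR, was lower in both clones. It was at 220, 191 and 218 CPM in control, 159, 164 and 159 in Ako-3 and 96.7, 114 and 117 in Mko-3, and the 3 groups did not overlap. Its log2 fold change was -0.41 in Ako-3 and -0.98 in Mko-3 against control, and -0.57 in Mko-3 against Ako-3 (adjusted p = 3.5e-05, 2.0e-09 and 6.3e-15 by edgeR). The value in Mko-3 lies just short of the fold threshold and passed it without control replicate 2 or without Mko-3 replicate 3. NR0B2 (SHP), the repressor that FXR induces, had log2 fold changes of -0.59 and -0.40 against control (adjusted p = 4.1e-04 and 0.00241), and between the clones it was at 0.19 (95% interval -0.01 to 0.39).

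FGF19, the hormone that carries the bile acid signal to FGFR4 on hepatocytes, fell in Ako-3 from 47.3, 42.9 and 46.2 CPM in control to 17.2, 14.3 and 14.4, a log2 fold change of -1.60 (adjusted p = 4.1e-11). In Mko-3 it was at 32.0, 31.8 and 30.2 CPM, a log2 fold change of -0.57 against control (adjusted p = 4.1e-06) and 1.03 against Ako-3 (adjusted p = 8.1e-17), so that the 3 groups did not overlap. The value against Ako-3 fell short of the fold threshold without Ako-3 replicate 2 or Ako-3 replicate 3, with a lowest value of 0.98. Its receptor FGFR4 was at 0.09 (95% interval -0.04 to 0.22) in Ako-3 and -0.22 (adjusted p = 0.00635) in Mko-3, and KLB, the co-receptor, was at 0.50 (adjusted p = 9.7e-07) and 0.03 (95% interval -0.10 to 0.15). NR1H4 and SLC51B were lowest in Mko-3, NR0B2 was lower than control in both clones, and SLC51A overlapped between all groups. FGF19 was lowest in Ako-3, where SLC51B overlapped control. The part of NR1H4 in the levels of these genes was not tested.

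HNF4A, the hepatocyte nuclear receptor that drives many bile acid genes, had log2 fold changes of 0.70 and 0.30 against control in Ako-3 and Mko-3 (adjusted p = 3.4e-09 and 1.1e-04), and NR5A2 (LRH-1), an activator of CYP7A1 and CYP8B1, had -0.20 and -0.18 (adjusted p = 0.0272 and 0.037). PPARGC1A, a coactivator induced by fasting, fell in both clones, with 31, 27 and 48 counts in control, 14, 14 and 12 in Ako-3 and 5, 6 and 1 in Mko-3 and log2 fold changes of -1.44 and -3.08 (-0.75 and -1.23 by limma on log2(FPKM + 0.1)) (adjusted p = 0.00112 and 6.0e-06). Between the clones it was at -1.64 (adjusted p = 0.0103 by edgeR), a call that was lost without Mko-3 replicate 3 (-1.25). In both Mko-3 comparisons PPARGC1A passed the filter on low counts only through the other group, where it is higher, which favours a lower call in Mko-3. Over the regulation list, 2 genes were higher and 7 lower of 17 by the adjusted p alone in Ako-3, and 2 higher and 12 lower of 17 in Mko-3 against control. By this rule 25.5% of all genes were higher and 24.4% lower in Ako-3, and 26.9% were higher and 27.1% lower in Mko-3.

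**Figure D5:**
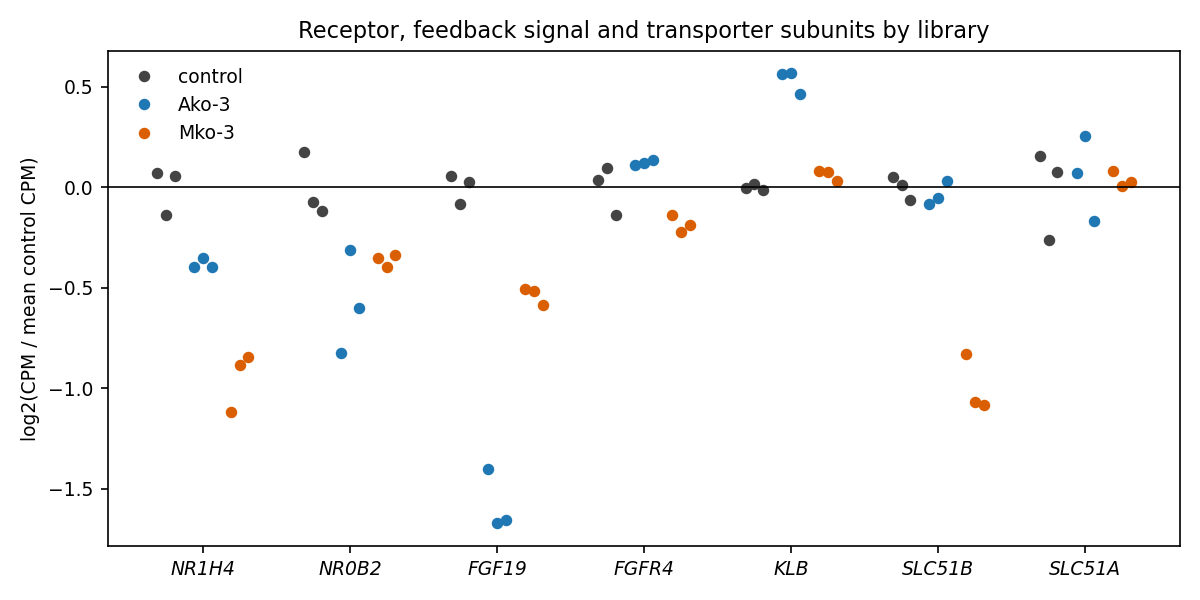
CPM of the receptor gene NR1H4, of NR0B2, FGF19, FGFR4 and KLB, and of the 2 OST subunits, in each library on a log2 scale relative to the mean of the control libraries, which is at 0. NR1H4 steps down from control to Ako-3 to Mko-3, FGF19 is lowest in Ako-3, SLC51B is low in Mko-3 alone, and SLC51A scatters around 0 in every group.

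In the clearance list, 3 of 4 genes were tested. UGT2B4, which glucuronidates bile acids, was at 12.7, 9.60 and 11.9 CPM in control, 30.2, 29.9 and 25.7 in Ako-3 and 13.0, 13.2 and 12.2 in Mko-3. Its log2 fold change was 1.29 in Ako-3 against control (adjusted p = 1.6e-08) and -1.16 in Mko-3 against Ako-3 (adjusted p = 4.3e-18), and control and Mko-3 overlapped in part of their libraries. SULT2A1, which sulfates bile acids, had 226, 171 and 218 counts in control, 211, 265 and 273 in Ako-3 and 95, 123 and 97 in Mko-3. It was lower in Mko-3 by both comparisons, at -0.94 against control (adjusted p = 8.2e-06) and -1.17 against Ako-3 (adjusted p = 4.8e-12), and the value against control passed the fold threshold without Mko-3 replicate 2 (-1.02). UGT2B4 belongs to a family of near-identical genes, so its reads are uncertain.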

How the data were processed

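Poly(A) RNA of 9 libraries, grouped by the labels, was analysed. The authors aligned the reads with HISAT2 2.0.5 to hg38 (the submitters' processing notes also list GRCh37 and hg19), counted them with featureCounts 1.5.0-p3, and deposited raw counts. The deposited FPKM are counts over gene length, scaled in proportion to DESeq2 size factors. Columns of other samples numbered 0.

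CPM used TMM factors over the 9 libraries. Each comparison was fitted on its 6 libraries with edgeR 4.0.16 in R 4.3.3 (TMM, filterByExpr with minimum count 10, robust quasi-likelihood F test, Benjamini-Hochberg adjustment over all genes tested). Calls needed the study's thresholds, a log2 fold change of 1 or more in size and an adjusted p not above 0.05, or the adjusted p alone. The SE is the size of the log2 fold change over the square root of F. The labels call the libraries biological replicates without naming their cultures, so p-values measure the spread between these libraries. Totals of 14638727 to 20179760 counts leave genes near 10 counts with wide errors. The scripts were tested on simulated data.

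The members and lists were chosen with earlier results of these data known. Named are all 10 members, genes of the wider lists past both thresholds in any comparison, 7 regulators whatever they did (NR1H4, NR0B2, FGF19, FGFR4, KLB, HNF4A, NR5A2), and the 3 genes most like each of 3 members. Alternatives were DESeq2 1.42.0, RLE size factors, 2 other filters, a fit of all 9 libraries, the replicate block, limma 3.58.1 on log2(FPKM + 0.1), and leaving out each library. Of the other marker lists, fibroblast genes summed to at most 8.12 CPM, leukocyte genes to at most 11.1 CPM (CD68 at 0), and endothelial genes to 75.8 to 85.4 CPM in control, 105 to 114 in Ako-3 and 55.3 to 60.9 in Mko-3.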

Additional observations from a re-analysis of the deposited data

Results flagged for a closer look

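In Mko-3 against Ako-3, 2.26% of all 15528 genes tested were called higher and 3.47% lower at both thresholds. This direct test between the clones, by edgeR's quasi-likelihood F test, passed both thresholds for 11 of the 50 genes tested of the bile acid lists. The log2 fold changes of those higher in Mko-3 were 1.69 for SLCO1B1, 2.14 for AKR1C4, 1.01 for SLCO1B3 and 1.03 for FGF19. The log2 fold changes of those lower in Mko-3 were -1.32 for CYP8B1, -2.54 for ABCG5, -2.44 for ABCG8, -1.33 for FABP6, -1.64 for PPARGC1A, -1.17 for SULT2A1 and -1.16 for UGT2B4. CYP8B1 rests on 2 to 19 counts in each library and was called in 4 of 12 alternatives, and PPARGC1A rests on 1 to 14 counts. AKR1C4 passed the filter on low counts through Mko-3 and PPARGC1A through Ako-3, in each case the clone where the gene was higher. Each knockout is 1 clone, so what differs between the clones and what differs between the genes lost cannot be told apart.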

How the results depend on the processing

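Counts of called members changed with the filter, the method and the libraries used. In Mko-3 against control the 2 called became 1 with no filter on low counts (SLCO1B1) and 1 with at least 10 counts in every library (SLC51B), and 1 to 2 when single libraries were left out. In Mko-3 against Ako-3 the 2 called became 1 with DESeq2, 1 with no filter, 0 with at least 10 counts in every library, 1 with all 9 libraries in 1 fit and 1 with limma on log2(FPKM + 0.1), and 1 to 2 when single libraries were left out; the strict filter removes SLCO1B1 and CYP8B1 by its construction. In Ako-3 against control the count stayed at 0 in every alternative. The wider lists, for which alternatives other than DESeq2 were added after seeing the data, went from 8 to 4 in Mko-3 against control and from 11 to 6 in Mko-3 against Ako-3 with at least 10 counts in every library. By its construction that filter also removes AKR1C4 and PPARGC1A from both Mko-3 comparisons, and SLC27A5 from Mko-3 against control.

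Of the values of single members under these alternatives, 188 kept their direction and side of the thresholds, 13 no longer passed, 1 newly passed, and 14 changed sign. All 14 were of SLC51A or of SLCO1B1 in Ako-3 and had adjusted p of at least 0.59 (DESeq2, edgeR or limma). For SLC51A in Mko-3 against control (-0.0014) they were 0.0070 with DESeq2, 0.0057 with RLE size factors, 0.031 with no filter, 0.0090 with all 9 libraries in 1 fit, 0.0089 with the replicate block and 0.026 with limma on log2(FPKM + 0.1), and -0.10 to 0.086 when single libraries were left out. When single libraries were left out, SLC51A was -0.082 to 0.13 in Ako-3 against control and -0.13 to 0.073 in Mko-3 against Ako-3, and SLCO1B1 in Ako-3 against control was -0.82 to 3.1e-04.

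By limma on log2(FPKM + 0.1), a scale that understates changes of low genes, PPARGC1A was at -0.75 in Ako-3 and -1.23 in Mko-3 against control and at -0.48 in Mko-3 against Ako-3, and of these only the value in Mko-3 against control was called; SLC27A5 in Mko-3 against control was at -1.35. SLCO1B3 in Mko-3 against Ako-3 was called in 8 of 13 alternatives (0.81 to 1.16) and FGF19 in 11 of 13 (0.98 to 1.13).

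Over all genes the calls were 1345, 1739 and 890 in the 3 comparisons in order, and 841, 1113 and 511 with the strict filter. Same-numbered libraries deviated with r of -0.096 to 0.078 over 16169 genes. These values show no pairing by number, but 3 libraries in each group cannot exclude it, and the labels do not name the cultures. With the replicate block the calls were 1336, 1730 and 899, and the members called were 0, 2 and 2. Depth limits the low members, among them ABCB11 with 2 to 11 counts and CYP8B1 with 2 to 19 counts in each library.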
